A study of Mus musculus with 6 samples.

Results

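Expression of 9 genes of the Sox family other than Sox2 was compared between mouse ES cells (mES) and epiblast stem cells (EpiSC), namely Sox1, Sox4, Sox9, Sox10, Sox11, Sox13, Sox15, Sox18 and Sox21. They were chosen by name, and every non-control probe whose gene name in the scanner files was one of these 9 was taken, which gave 19 of the 41174 probes on the array. Sox11 had 6 probes, Sox9 and Sox21 had 3 each, Sox10 had 2 and the other 5 genes had 1 each. An ES cell line is grown out of the blastocyst, before implantation, and an EpiSC line out of the later, postimplantation epiblast. The study compared their expression on 1-colour Agilent arrays, with 3 arrays of each cell type.

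The mES group held the lines ESF122 (replicate 1), ESF175/1 (replicate 2) and ESF58/2 (replicate 3), the last of which another label names ESF58/1. The EpiSC group held the line EpiSC-5 (replicate 1) and the line EpiSC-7 at passage 20 (replicate 2) and at passage 25 (replicate 3), so that its 3 arrays came from 2 lines. All 6 cultures were kept on irradiated mouse embryonic fibroblasts (MEFs) in DMEM with KSR, BME, NEAA and L-glutamine. LIF was added to the mES cultures and FGF2 to the EpiSC cultures, so the factor and the cell type cannot be told apart. Each of the 4 slides, which were also the 4 scans, held 1 group only and cannot be told apart from it either. Nothing but line and passage tells separate cultures apart in the labels, so the p-values reflect only how these samples varied, which may be technical. Of all probes 66.2% to 75.4% per array were well above background, and the number of arrays limits the precision.

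The labels were set against marker genes. All 6 mES markers (Zfp42, Esrrb, Klf4, Tbx3, Dppa3 and Nr0b1) fell in EpiSC, all 6 EpiSC markers (Fgf5, T, Eomes, Otx2, Cer1 and Foxa2) rose, and 0 of 4 genes shared by both cell types passed the test. Genes of fibroblasts, the cell type of the feeder layer, gave signal on every array. The summed signal of 19 fibroblast genes was taken in multiples of the array's 75th percentile. It was 114, 38.6 and 143 in mES replicates 1 to 3 and 180, 116 and 74.6 in EpiSC replicates 1 to 3. The 143 of mES replicate 3 is understated, because Col1a2 had no value there (log2 4.88 and 2.64 in mES replicates 1 and 2). Of the 19 genes 2 (Tagln and Acta2) rose, 1 (Cdh11) fell and 16 did not pass, with a median difference of -0.32. The sum is weighted to bright genes. On EpiSC replicate 3 the brightest of the 19 were Tagln and Acta2 (log2 5.27 and 3.99). These are whole cultures, in which fewer cells of a type and less RNA per cell cannot be told apart.

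Sox proteins bind DNA through an HMG box, which bends the double helix at a short core motif, and they act together with partner factors such as POU proteins. The family is divided into groups by the similarity of the HMG box. The B1 group includes Sox1 and the pluripotency factor Sox2, and the B2 group, with Sox21, is known for repression. The C group (Sox4, Sox11), the D group (Sox13), the E group (Sox9, Sox10), the F group (Sox18) and the G group (Sox15) are known mostly from differentiating lineages, Sox15 being an exception that is expressed in ES cells.

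In EpiSC 5 of the 9 genes rose (Sox4, Sox9, Sox11, Sox13 and Sox21) and 1 fell (Sox15). Sox1, Sox10 and Sox18 did not pass the test. Values are log2 signals relative to the array's 75th percentile, and a difference is EpiSC minus mES with its standard error, n = 3 per group, tested with limma and Benjamini-Hochberg adjustment across the 29549 probes tested. Tested were probes that all arrays of one group or the other placed well above background, 18 of the 19 among them, and a probe passed at an adjusted p under 0.05. Of these 18 probes 11 rose, against 12.2% of all probes, and 1 fell, against 13.9%. Among the 11, the Sox9 probes A_52_P214630 and A_52_P577484 and the Sox21 probe A_52_P326502 entered only through EpiSC, where they were higher. They were well above background on 0, 1 and 2 of the 3 mES arrays. A stricter entry rule asked for detection in both groups on every array. Under it 3 genes rose and 1 fell, and neither Sox9 nor Sox21 passed. The 3 values of one group lay outside those of the other for 14 of the 18, against 48.0% of all probes. By gene, 6 of 9 had at least 1 probe past the threshold, against 30.3% of 20688 genes. That share depends on the number of probes per gene. With 1 probe per gene 4 of the 9 rose and 1 fell, against 2441 and 2995 of the 20688 genes. Probes of one gene are not independent, and 6 of the 11 that rose belong to Sox11. Of the 14 without overlap, 2 are named Sox21 but which gene they read is uncertain.

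**Figure D1:**
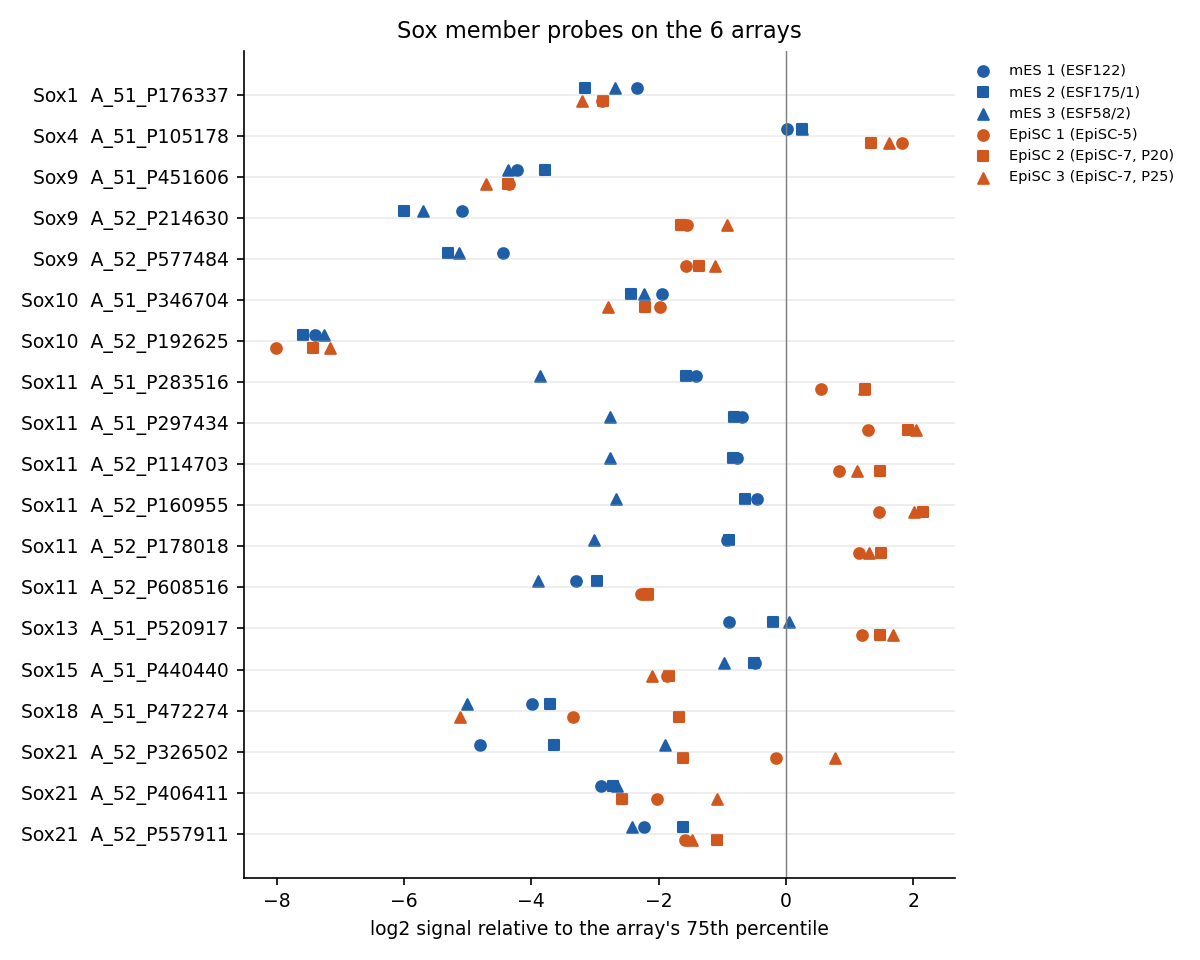
Log2 signal relative to the array's 75th percentile (x axis) of the 19 probes (y axis) on each of the 6 arrays, with mES arrays in blue and EpiSC arrays in orange. The EpiSC points lie to the right of the mES points for Sox4, Sox11, Sox13, Sox21 and for 2 of the 3 Sox9 probes, and to the left for Sox15.

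**Figure D2:**
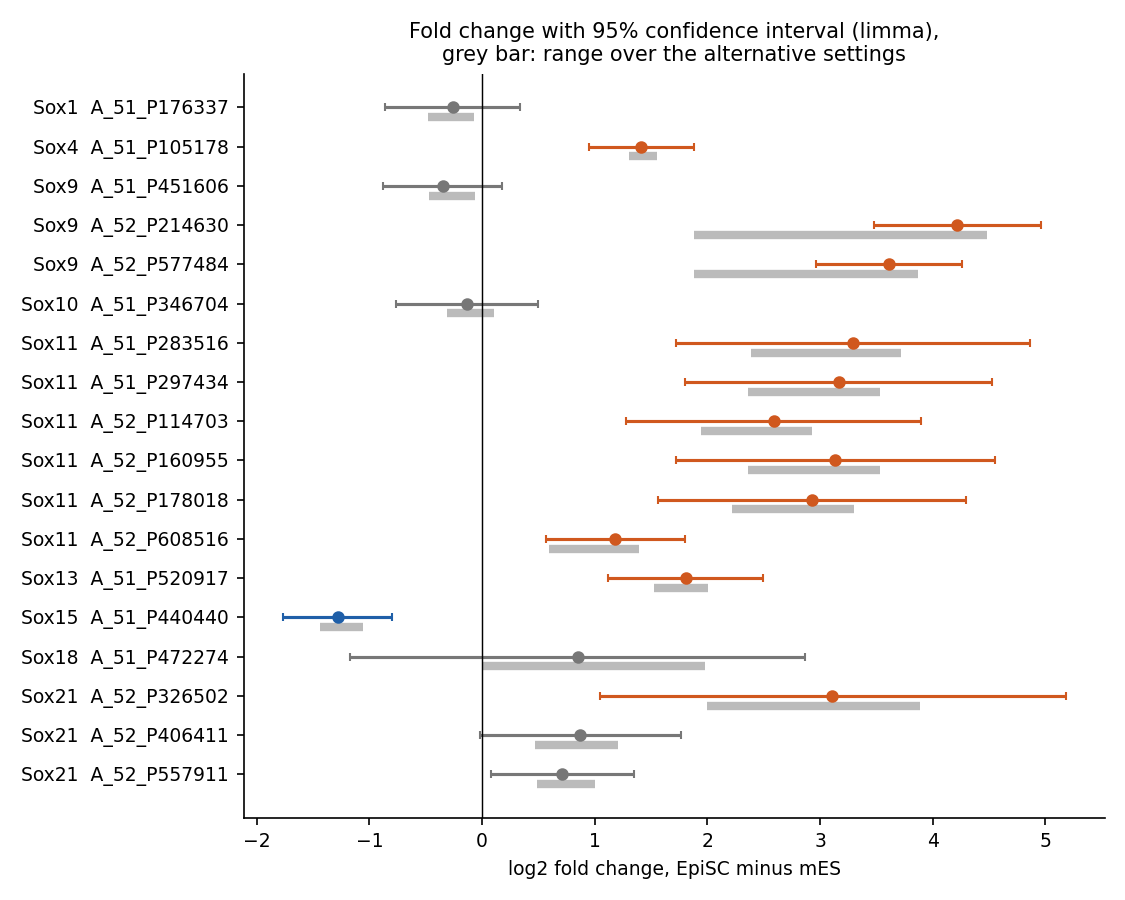
Log2 fold change, EpiSC minus mES, of the 18 tested probes with limma's 95% confidence interval (orange, higher; blue, lower; grey, not passed), and below each point a grey bar for the range over the alternative settings. The intervals of Sox1, Sox10, Sox18, 1 Sox9 probe and 1 Sox21 probe (A_52_P406411) cross 0.

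Sox4 and Sox11, the C group pair that acts in the differentiation of neurons and in many embryonic tissues, both rose. Sox11 had 6 probes, all of them higher in EpiSC. The values of the brightest, A_52_P160955, were -0.46, -0.65 and -2.67 in mES replicates 1 to 3 and 1.46, 2.15 and 2.01 in EpiSC replicates 1 to 3. All EpiSC arrays lay above all mES arrays, and mES replicate 3 lay far below the other mES arrays. The difference was 3.13 ± 0.59 (SE, n = 3 per group), which is 8.77-fold (limma adjusted p = 0.0123).

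The other 5 Sox11 probes gave 3.29 ± 0.66 (A_51_P283516, adjusted p = 0.0147), 3.17 ± 0.57 (A_51_P297434, adjusted p = 0.0106), 2.93 ± 0.57 (A_52_P178018, adjusted p = 0.0137), 2.59 ± 0.55 (A_52_P114703, adjusted p = 0.0176) and 1.18 ± 0.26 (A_52_P608516, adjusted p = 0.0189). All but A_52_P608516 thus gave between 2.59 and 3.29, and A_52_P608516 gave a 2.27-fold rise. On that probe the mES values were -3.30, -2.97 and -3.89 and the EpiSC values -2.27, -2.16 and -2.18. The deficit of mES replicate 3 against the mean of the other mES arrays was 1.96 to 2.37 on the log2 scale at the other 5 probes and 0.75 at A_52_P608516.

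The position of an array on its slide moved with this line. mES replicate 3 and EpiSC replicate 3 lay at position 1 and the other 4 arrays at position 4. At A_52_P160955 the EpiSC minus mES difference was 2.36 at position 4 and 4.68 at position 1, where there was 1 array a group and no test. With the arrays at position 4 only, 5 probes still passed and A_52_P608516 did not (0.92, adjusted p = 0.0638). Without mES replicate 3 the difference at A_52_P608516 was 0.93 and passed (adjusted p = 0.024).

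Leaving out 1 array ended the call at 4 of the 6 Sox11 probes. Without EpiSC replicate 3 these were A_51_P283516 (adjusted p = 0.0571), A_52_P114703 (adjusted p = 0.0607), A_52_P178018 (adjusted p = 0.0514) and A_52_P608516 (adjusted p = 0.0647). Without EpiSC replicate 2 they were A_52_P114703 (adjusted p = 0.0554) and A_52_P608516 (adjusted p = 0.0516), and without EpiSC replicate 1 it was A_52_P608516 (adjusted p = 0.0564). The direction held at all 6 probes in all 6 such fits. Without mES replicate 3, the low array, all 6 passed with smaller differences, 2.43 at A_52_P160955, 2.50 at A_51_P283516 and at A_51_P297434, 2.22 at A_52_P178018 and 1.94 at A_52_P114703. With both EpiSC-7 arrays counted as 1 sample A_52_P114703 (2.51, adjusted p = 0.0533) and A_52_P608516 (1.17, adjusted p = 0.0511) lost their call. The normexp correction gave 2.70 at A_51_P283516 and 0.59 at A_52_P608516, both of which passed.

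Sox4 had 1 probe, A_51_P105178. Its values were 0.02, 0.25 and 0.26 in mES replicates 1 to 3 and 1.82, 1.33 and 1.62 in EpiSC replicates 1 to 3. The groups did not overlap, and each varied little within itself (SD 0.13 and 0.25). The difference was 1.41 ± 0.19, a 2.66-fold rise (limma adjusted p = 0.0044, n = 3 per group). With 1 array left out it ranged from 1.30 to 1.55 and passed in all 6 fits. At position 4 it was 1.44 and at position 1 it was 1.37, and mES replicate 3 did not lie apart from the other mES arrays as it did for Sox11.

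Sequences upstream of these genes were taken from RefSeq (GRCm38.p6), which held a start-site window for 6 of the 9 genes. They are shown for both C group genes, which rose together, and for Sox15, the gene that fell. Each run is the 250 bases before the annotated start, with capitals at CCAAT or ACAAT on either strand (ATTGG and ATTGT in reverse). CCAAT is the box bound by NF-Y, and ACAAT is the core of the Sox motif. The windows are chr13:28953700-28953949 on the minus strand for Sox4, chr12:27342719-27342968 on the minus strand for Sox11 and chr11:69654787-69655036 on the plus strand for Sox15.
Sox4: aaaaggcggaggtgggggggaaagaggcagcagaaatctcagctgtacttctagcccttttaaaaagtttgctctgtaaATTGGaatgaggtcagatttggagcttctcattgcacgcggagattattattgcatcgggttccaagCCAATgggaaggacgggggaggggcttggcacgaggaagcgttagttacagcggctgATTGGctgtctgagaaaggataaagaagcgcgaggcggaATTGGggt
Sox11: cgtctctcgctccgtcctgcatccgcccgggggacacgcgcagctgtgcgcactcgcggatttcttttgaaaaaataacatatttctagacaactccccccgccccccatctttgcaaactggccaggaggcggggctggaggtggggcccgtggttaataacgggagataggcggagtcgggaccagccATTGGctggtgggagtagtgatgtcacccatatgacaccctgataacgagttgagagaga
Sox15: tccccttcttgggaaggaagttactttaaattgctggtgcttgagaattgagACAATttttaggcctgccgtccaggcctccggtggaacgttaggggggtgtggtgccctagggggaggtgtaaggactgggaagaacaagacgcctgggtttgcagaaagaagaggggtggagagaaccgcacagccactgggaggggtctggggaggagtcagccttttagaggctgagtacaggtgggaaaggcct

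The Sox4 window held 4 matches to CCAAT and the Sox11 window 1, while the Sox15 window held 0 and had 1 match to ACAAT. Of 32841 RefSeq windows of this length 33.9% held CCAAT, 0.84% held at least 4 and 27.7% held ACAAT. No match to one motif overlapped a match to the other in these 3 windows. GGGCGG, the GC box, was found on either strand 2 times in the Sox11 window, 0 times in the other 2 and in 32.7% of all windows. TATAAA (12.4% of windows) and the octamer ATGCAAAT (1.6%) were in none of the 3. CG dinucleotides numbered 11 for Sox4, 17 for Sox11 and 5 for Sox15, with a median of 6 over all windows. Among the windows not shown, those of Sox13 and Sox21, which rose, held 0 matches to CCAAT and 0 to GGGCGG. The window of Sox1, which did not pass, held 1 match to CCAAT and 3 to GGGCGG. A match is a description of the letters, not of binding.

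Sox9 and Sox10 belong to the E group. Sox9 is required in cartilage and testis, and Sox10 in neural crest and glia. On the array 2 of the 3 Sox9 probes rose by over 10-fold and the third did not move with them. That size depends on the background correction, as both differences were only 1.88 on the log2 scale with normexp. On A_52_P214630, a probe printed at 10 spots per array, the values were -5.09, -5.99 and -5.70 in mES replicates 1 to 3 and -1.56, -1.64 and -0.92 in EpiSC replicates 1 to 3. No mES array placed it well above background, where 2 of the 10 spots of replicate 1 and 0 of those of replicates 2 and 3 were, against all 10 on each EpiSC array.

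Each mES array's detection limit (its lowest signal scored as well above background) replaced the probe's own signal where that was lower. By this limit Sox9 was at least 14.6-fold higher in EpiSC by A_52_P214630 (limma adjusted p = 0.000545). The bound covers only the signal of the mES group, and only this background correction. It is not strict, as mES replicate 1 read -5.09, above its limit of -5.45, without being scored as well above background. Single spots ranged from -1.77 to -0.77 on the EpiSC arrays and from -6.60 to -4.37 on the mES arrays, so the groups did not overlap spot by spot. The measured difference of means was 4.22 ± 0.31 on the log2 scale.

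The second probe, A_52_P577484, had values of -4.44, -5.30 and -5.13 in mES replicates 1 to 3 and -1.57, -1.37 and -1.11 in EpiSC replicates 1 to 3. It was well above background on 1 mES array. On mES replicates 2 and 3 it read close to their detection limits of -5.33 and -5.30. The difference was 3.61 ± 0.27, which is 12.2-fold (limma adjusted p = 0.000631, n = 3 per group). Both probes passed in all 6 fits with 1 array left out. With the normexp background correction both differences fell to 1.88 and passed (adjusted p = 0.000724 and 0.000377).

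The third probe, A_51_P451606, read -4.23, -3.78 and -4.36 in mES and -4.35, -4.37 and -4.71 in EpiSC. It was well above background on all 3 arrays of each group, unlike the other probes. Its groups overlapped and its difference was -0.35 ± 0.22 (95% confidence interval -0.88 to 0.18, limma adjusted p = 0.27). All 3 probes carry the same Sox9 transcript accession in the scanner files, and the stretch of it that each probe reads was not looked at here. The rise of Sox9 thus rests on 2 of its 3 probes.

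**Figure D3:**
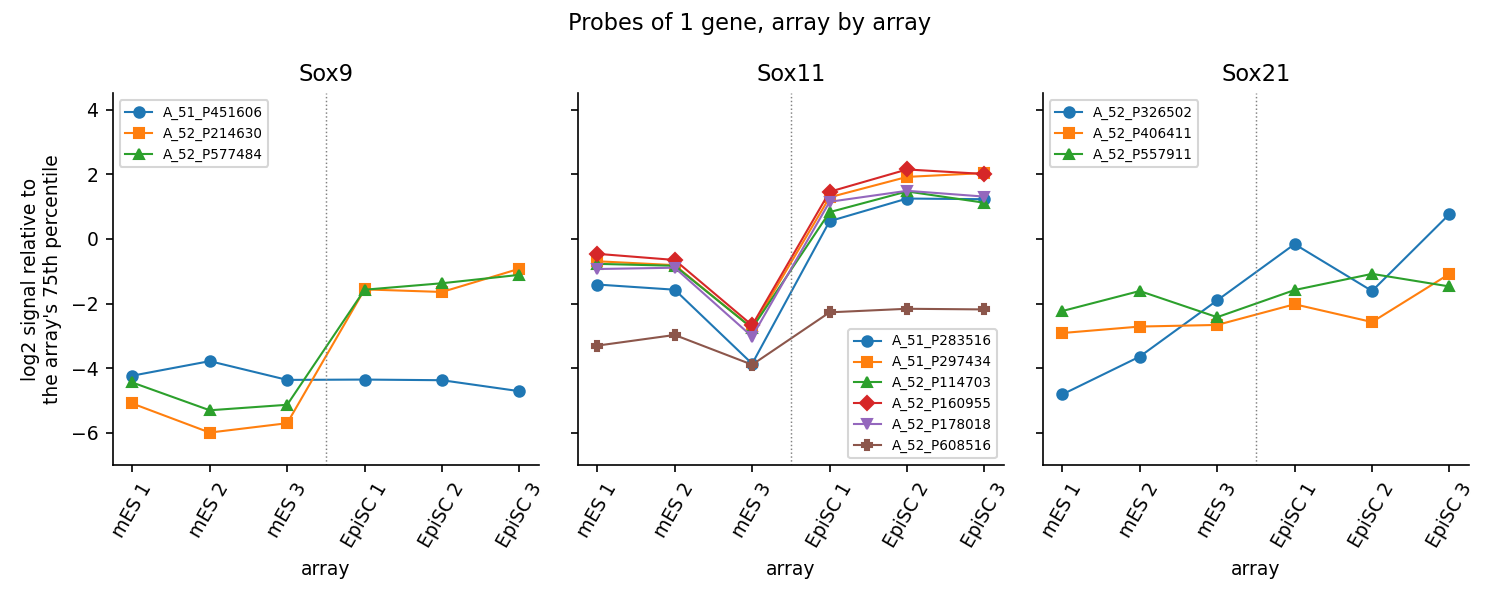
Log2 signal relative to the array's 75th percentile (y axis) on each array (x axis) for the 3 Sox9, 6 Sox11 and 3 Sox21 probes, where a line only joins the points of 1 probe. The lines of 2 Sox9 probes step up between the groups and A_51_P451606 stays between -4.71 and -3.78, while the Sox11 probes share the low value of mES replicate 3.

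Sox10 read -1.94, -2.43 and -2.23 in mES and -1.98, -2.21 and -2.80 in EpiSC on A_51_P346704. The groups overlapped, and the difference was -0.13 ± 0.27 (95% confidence interval -0.76 to 0.50, limma adjusted p = 0.737). Its sign turned at position 4 (0.09) and without EpiSC replicate 3 (0.11). The other probe, A_52_P192625, stayed below detection on all 6 arrays and was not tested, its values lying between -8.01 and -7.16.

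Sox13, a D group gene known in T cells and in arterial walls, rose. Its probe A_51_P520917 read -0.90, -0.21 and 0.05 in mES replicates 1 to 3 and 1.19, 1.48 and 1.68 in EpiSC replicates 1 to 3, without overlap. The difference was 1.81 ± 0.29, a 3.50-fold rise (limma adjusted p = 0.00687, n = 3 per group). It ranged from 1.53 to 2.01 with 1 array left out and passed in all 6 fits.

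Sox15, the G group gene, was the only one of the 9 to fall. Its probe A_51_P440440 read -0.48, -0.50 and -0.97 in mES replicates 1 to 3 and -1.86, -1.84 and -2.10 in EpiSC replicates 1 to 3. All EpiSC arrays lay below all mES arrays. The difference was -1.28 ± 0.20, which is 2.43-fold lower in EpiSC (limma adjusted p = 0.00685, n = 3 per group). With 1 array left out it ranged from -1.44 to -1.20 and passed in all 6 fits.

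Sox21, a B2 group repressor of neural progenitors, rose on 1 of its 3 probes. A_52_P326502 read -4.81, -3.64 and -1.90 in mES replicates 1 to 3 and -0.16, -1.61 and 0.77 in EpiSC replicates 1 to 3, with 2 of the 3 mES arrays and all EpiSC arrays well above background. The groups did not overlap, but the highest mES array (replicate 3, -1.90) and the lowest EpiSC array (replicate 2, -1.61) were close. The difference was 3.11 ± 0.86, which is 8.66-fold (limma adjusted p = 0.0405, n = 3 per group).

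The call on A_52_P326502 was lost without mES replicate 1 (2.44, adjusted p = 0.0969), mES replicate 2 (3.02, adjusted p = 0.0973), EpiSC replicate 1 (3.03, adjusted p = 0.109) or EpiSC replicate 3 (2.56, adjusted p = 0.124). It was also lost when both EpiSC-7 arrays were averaged into 1 sample (adjusted p = 0.0535). The difference was 2.00 with the normexp correction, 3.89 without mES replicate 3 and 3.75 without EpiSC replicate 2, and passed in these 3 fits. This probe was the only one of the 3 that the RefSeq table named Sox21 through its transcript accession, the other 2 keeping the name in the scanner file. In that table Sox21 is also an older name of Sox10, and which gene these 2 probes read is uncertain. Those 2 did not pass, with 0.87 ± 0.37 at A_52_P406411 (adjusted p = 0.128) and 0.71 ± 0.27 at A_52_P557911 (adjusted p = 0.0922). A_52_P557911 passed without mES replicate 2 (0.95, adjusted p = 0.0484), and A_52_P406411 passed with the EpiSC-7 arrays counted as 1 sample (0.84 ± 0.18, adjusted p = 0.0316). Both passed with a random slide block (0.92 and 0.93), whose negative correlation lowers the errors. Neither of the 2 had overlapping groups.

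Sox1, a B1 group gene of the neural plate, did not pass. Its probe A_51_P176337 read -2.34, -3.16 and -2.68 in mES and -2.89, -2.87 and -3.20 in EpiSC, with overlapping groups. The difference was -0.26 ± 0.25 (95% confidence interval -0.86 to 0.34, limma adjusted p = 0.464).

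Sox18, an F group gene of endothelium, did not pass either, and varied more within EpiSC than any other of the 18 tested probes. Its probe A_51_P472274 read -3.98, -3.71 and -5.01 in mES replicates 1 to 3 and -3.34, -1.68 and -5.12 in EpiSC replicates 1 to 3. Both extremes of the EpiSC group came from EpiSC-7, at passage 20 and passage 25, which lay on the same slide. The difference between the groups was 0.85 ± 0.84 (95% confidence interval -1.17 to 2.87, limma adjusted p = 0.479). It ranged from 0.00 without EpiSC replicate 2 to 1.72 without EpiSC replicate 3.

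The summed fibroblast signal differed between arrays, and its part in these results was not tested. Among mES arrays the fibroblast sum was lowest in replicate 2 (38.6) and among EpiSC arrays in replicate 3 (74.6). With these 2 arrays left out, as chosen after seeing the data, the Sox9 probes still passed at 3.80 (A_52_P214630, adjusted p = 0.0103) and 3.32 (A_52_P577484, adjusted p = 0.0144). The other 5 genes kept their direction and lost their call, with 1.43 for Sox4 (adjusted p = 0.0568), 3.37 for Sox11 at A_52_P160955 (adjusted p = 0.0721), 1.76 for Sox13 (adjusted p = 0.0671), -1.12 for Sox15 (adjusted p = 0.0826) and 2.47 for Sox21 (adjusted p = 0.213). That fit had 2 arrays a group and called 2078 probes in all, against 7708. The fit with position 4 only also had 2 arrays a group, called 3895 probes and kept all 6 genes. The cause of the loss was not tested.

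**Figure D4:**
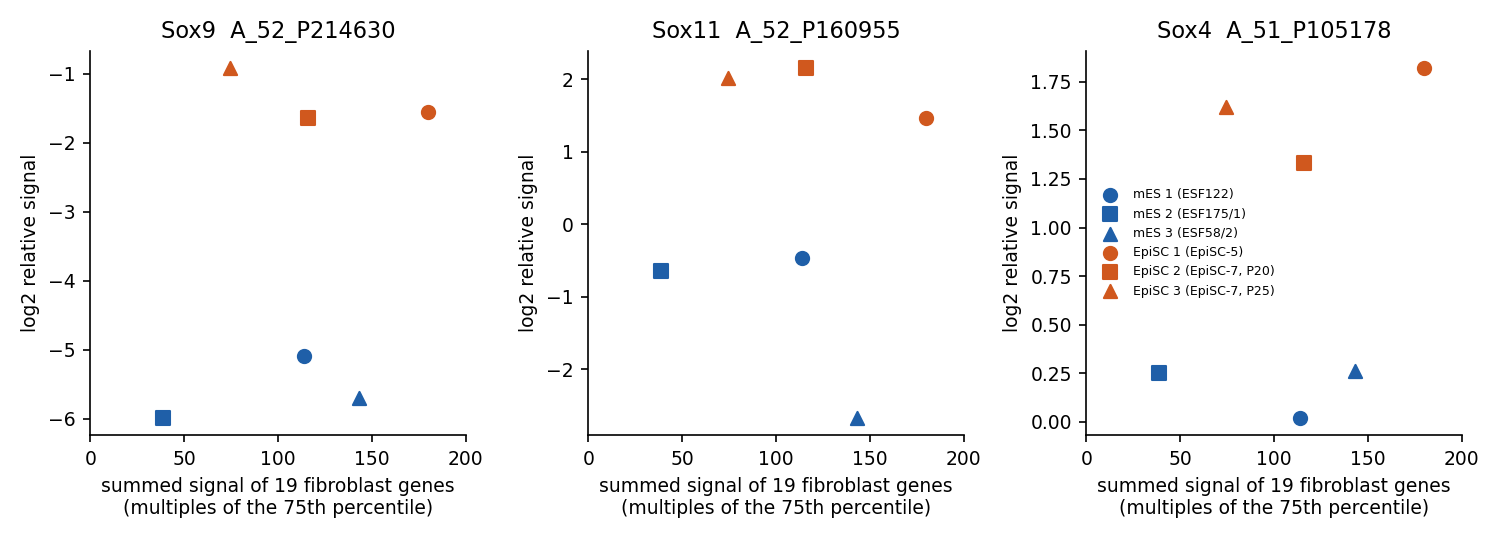
Log2 relative signal (y axis) of 1 probe each of Sox9, Sox11 and Sox4 against the summed signal of 19 fibroblast genes in multiples of the 75th percentile (x axis), 1 point per array, mES in blue and EpiSC in orange. The fibroblast sums range from 38.6 to 143 in mES, where replicate 3 lacks Col1a2, and from 74.6 to 180 in EpiSC. They include Tagln and Acta2, bright genes that rose in EpiSC. The 3 probes shown are among those whose groups do not overlap, and the part of the fibroblast signal was not tested.

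Of the other Sox genes 11 were on the fixed list and 8 were tested. Of these 3 rose and 0 fell (2 rose with the normexp correction), against 11.8% and 14.5% of all genes. Sox17, an endoderm factor of the F group, rose by 4.16 ± 0.64 at A_51_P273667 and 6.74 ± 0.64 at A_52_P279368 (adjusted p = 0.00649 and 0.00138). Sox7, also of the F group, rose by 1.01 ± 0.29 at A_51_P476018 (adjusted p = 0.0427). Its other probe, A_52_P644005, was well above background on 1 EpiSC array only and was not tested. Sox6, a D group partner of Sox9 in cartilage, was at least 1.98-fold higher by A_52_P282171 (adjusted p = 0.00435), 1 of its 5 probes. None of the other 4 was well above background in EpiSC, and 2 of them were on 1 mES array each, with means of -5.72 in mES and -5.98 in EpiSC (A_52_P25089) and of -6.13 and -6.30 (A_52_P394652), so they were not tested. Sox2, Sox3, Sox8, Sox12 (the third C group gene, 0.00 ± 0.37, adjusted p = 0.996) and Sox14 did not pass.

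Lists of partners, targets and cell type markers related to these factors were read by each gene's brightest entering probe. Over all 20688 genes 11.8% rose and 14.5% fell, and the median difference was -0.11. Of 16 tested partners and POU genes 3 rose and 0 fell (median 0.24), namely Pax3, which is active in neural crest and muscle (at least 2.41-fold), the Hedgehog effector Gli3 (1.52) and Ctnnb1, which encodes beta-catenin (0.55). Pou3f1, Pou3f2 and Pou3f3, POU factors active in neural cells, did not pass (0.33, 0.29 and 0.31), and Pou3f4 had no probe that entered the test. For each of those tested mES replicate 3 was the lowest mES array. It read 2.73 for Pou3f1, against 5.44 and 5.22 in mES replicates 1 and 2. For Pou3f3 it read -2.94, against -0.20 and -0.58.

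Of 12 genes of neurons and SoxC targets 4 rose and 2 fell (median 1.11). Among them were Nefm, a neurofilament subunit (3.01 ± 0.35), and the microtubule gene Map2 (1.01 ± 0.19). Tead2, a target of Sox4 and Sox11 in the mouse, rose by 1.48 ± 0.20 (adjusted p = 0.0043), while the neuronal genes Elavl3 (-1.64 ± 0.36) and Tubb3 (-1.29 ± 0.19) fell. Of 19 neural progenitor genes 3 rose (Fabp7 5.53, Dach1 2.93 and Meis2 2.82) and 1 fell (Nkx6-2, -1.17), with a median of 0.33. Pax6 did not pass (-1.04 ± 0.34, adjusted p = 0.0673).

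Of 12 tested cartilage and Sertoli targets of Sox9, 1 rose (Sox6, by that 1 probe) and 1 fell, the cartilage proteoglycan gene Acan (-0.83 ± 0.21, adjusted p = 0.0309), with a median of -0.07. Col2a1, the collagen gene of cartilage that Sox9 activates, had 1.42 ± 0.62 (adjusted p = 0.134). Of 17 neural crest and Schwann genes 2 rose (Pax3 and Foxd3, 1.51) and 1 fell (Mitf, -2.21), with a median of 0.14.

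Of 11 endothelial genes 2 rose (Flt1, 5.89, and Prox1, at least 9.97-fold) and 3 fell (Eng -3.46, Vwf -2.48 and Nos3 -1.41), with a median of -0.87. Of 9 endoderm genes 5 rose and 0 fell (median 3.57), the largest being Cer1 (at least 1370-fold), Foxa2 (8.02) and Sox17. The lists were not compared with one another.

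For each of the 6 genes that passed, the other genes whose log2 signals over the 6 arrays, centred on their mean, differed least from its brightest tested probe were taken. The measure is the root-mean-square difference over the 6 arrays in log2 units. Closest by symbol to Sox4 were Phf2 and Afap1l1 (both 0.09), to Sox11 Prickle1 (0.22) and Car14 (0.32), to Sox9 Igsf11 (0.21) and Pcdhb22 (0.22), and to Sox13 D830030K20Rik (0.13) and Epdr1 (0.18). Closest to Sox15 were Centb1 (0.05), Cep70 (0.07) and Rcsd1 (0.09). For Sox21 the brightest probe was A_52_P557911, which did not pass and whose gene is uncertain, and closest to that probe were BC019530 (0.06), Dlc1 (0.08) and Mc1r (0.09).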

How the data were processed

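Total RNA extracted with TRIzol was labelled with Cy3, per the labels' protocols. The deposited scanner files hold spot intensity on a linear scale, made by Agilent Feature Extraction 9.1.3.1 per the file headers. The value table of the series, also intensity deposited by the authors, matched that processed signal to within 0.00716 on the log2 scale, linear and uncentred, with column medians of 78.9, 84.9 and 68.7 (mES) and 117, 80.25 and 82.95 (EpiSC).

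Control and outlier spots were left out, log2 signals of a probe's spots averaged, and each array's 75th percentile over probes subtracted. At most 1 value per group could be missing. Groups were fitted with limma 3.58.1 in R 4.3.3 (lmFit, eBayes, two-sided, no covariate), and all adjusted p-values are limma's. Where a whole group lay below detection, the fold is given as a bound (at least). In it each dim array contributes its detection limit or the probe's signal, whichever is higher. Such a bound is not strict, because signals above that limit were not always scored as well above background. The fit was also run on simulated data with independent arrays. That run had no slides and no shared EpiSC-7 line, so it cannot speak to those features of the design.

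The genes, lists and tests were chosen with earlier results of these data known. Named are all probes of the 9 genes, other Sox genes, up to 3 list genes per direction past the threshold, the 3 nearest profiles (those with a symbol), and some list members singled out after their values were seen. Alternatives changed the background correction, scaling, value source, filter, spread, slide or position, the EpiSC-7 arrays, the probes per gene or the arrays kept.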

Additional observations from a re-analysis of the deposited data

How the results depend on the processing

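The same 6 genes had a probe past the threshold with normexp, quantile and median scaling, the value table, a mean-variance trend, the EpiSC-7 arrays averaged, the slide as a random block, position as a block, position 4 only and no filter, though with EpiSC-7 averaged Sox21 passed by A_52_P406411 in place of A_52_P326502. With probes above background on all arrays 4 remained (Sox4, Sox11, Sox13 and Sox15), with 1 probe per gene 5 (Sox21 lost), and without the arrays low in fibroblast genes, chosen after seeing the data, 1 (Sox9). With 1 array left out 5 to 6 remained, Sox21 being the one lost, and without mES replicate 2 it passed only by A_52_P557911. Over all probes 7708 were called, 4121 to 7140 with 1 array left out, 3895 at position 4 only, 12145 with no filter (more probes tested), 2078 without the arrays low in fibroblast genes (2 arrays a group, as at position 4 only; the cause was not tested) and 16970 under a random slide block, whose fitted correlation of -0.69 lowers the errors, so that calls gained there are no support. Sox10 turned sign at position 4 (0.09) and without EpiSC replicate 3 (between -0.31 and 0.11 over the 6 such fits). The fibroblast sum was 1.25-fold higher in EpiSC, and 1.26 to 1.44-fold under the other settings. That sum is weighted to bright genes, among them Tagln and Acta2, which rose, and does not describe the list as a whole. The median difference over the 19 genes was -0.32, and 16 of them did not pass. The 1.25 lacks Col1a2 on mES replicate 3, which lowers the mES sum. No paired analysis was possible because the groups are different lines and the labels give no pairing between them. Signal over background limits Sox9 in mES at A_52_P214630 and A_52_P577484, and the second Sox10 probe.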

Other observations

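The probe named Sox19 in the scanner files, a name that the RefSeq table did not resolve, followed the Sox1 probe A_51_P176337 array by array. Its values were -2.30, -3.18 and -2.70 in mES replicates 1 to 3 and -2.96, -3.15 and -3.28 in EpiSC replicates 1 to 3, at most 0.28 from those of Sox1 on any array. It did not pass (-0.40 ± 0.26, limma adjusted p = 0.278). Sox17 had 2 further probes that were not well above background on all arrays of either group and were not tested, beside the 2 that rose.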
